A study of Rattus norvegicus with 24 samples.

Results

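The RT1 genes are the major histocompatibility complex (MHC) genes of the rat. Every array probe whose gene name began with RT1- was taken, which gave 55 probes for 44 gene names out of 30367 probes for 26278 names. Sorted by symbol, 3 probes belonged to the classical class I genes RT1-A1 and RT1-A2, 41 probes to 33 other class I genes, called non-classical here, and 11 probes to 9 class II genes. A probe entered the tests if its signal was well above background on at least 6 of 24 arrays, and 46 RT1 probes for 38 genes did, among 21179 probes of the array.

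The liver RNA of 24 male Wistar rats was hybridised to one-colour Agilent arrays, each rat to its own array, in a model of non-alcoholic fatty liver disease. The rats had eaten Mazuri rodent pellets up to the age of 6 months and then received a purified AIN76A-based diet for 12 weeks, with starch and dextrin evening out the carbohydrate. Low copper meant under 0.3 mg/kg and adequate copper 125 mg/kg, which the sample labels call high. There were 6 rats in each of 4 diets, which were low copper with 30% sucrose, adequate copper with 30% sucrose, low copper with 10% sucrose, and the control diet of adequate copper with 10% sucrose.

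Class I molecules are heavy chains that pair with beta-2 microglobulin and show peptides from inside the cell to CD8+ T cells, and nearly all cells make the classical ones. Non-classical class I genes are often expressed at lower levels or in particular tissues, and several of their products are read by natural killer or unusual T cells. Class II molecules are made by antigen-presenting cells such as dendritic cells, macrophages and B cells, and in the liver by Kupffer cells. Rat MHC haplotypes differ in the sequence of these genes and in the number of class I genes they hold, and Wistar rats are an outbred stock.

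Because class I genes resemble each other, the probe sequences matter for what each probe can tell apart. Of the 55 probes of 60 bases, 18 shared a run of at least 15 bases with the probe of another RT1 gene, 12 at least 20 bases and 2 at least 30 bases. They were 16 of the 41 non-classical and 2 of the 3 classical class I probes, against 0 of 11 class II probes. Probes were compared only with each other and not with transcripts. A probe without a shared run, class II probes included, may therefore still read another gene. The longest shared run was 43 bases between a probe of RT1-S2 and a probe of RT1-CE5. Both are shown first, with the shared run in capitals (positions on chromosome 20 and strands refer to rn4 for probes, per the file headers, and all sequences run 5′ to 3′). Readings of such probes cannot be assigned to 1 gene alone.
RT1-S2 (A_64_P057222): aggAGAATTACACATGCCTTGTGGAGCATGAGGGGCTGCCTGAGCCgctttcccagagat
RT1-CE5 (A_64_P090475): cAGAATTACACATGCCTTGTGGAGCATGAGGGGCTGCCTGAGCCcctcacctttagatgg

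The next 4 probes are shown because their readings fell into the same low and high rats, as described below. RT1-N1 was read at chr20:2788743-2788802 and RT1-N3 at chr20:2810020-2810079, both on the plus strand. Their longest shared run, in capitals, was 19 bases, and at the best offset 51 of 58 overlapping bases were identical. The probes of RT1-N2 (chr20:2787802-2787861, plus strand) and RT1-CE10 (chr20:3469045-3469104, plus strand) shared no run of 15 bases with another RT1 gene's probe and carry no capitals.
RT1-N1 (A_64_P139208): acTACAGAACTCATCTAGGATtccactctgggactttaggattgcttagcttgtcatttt
RT1-N3 (A_64_P139947): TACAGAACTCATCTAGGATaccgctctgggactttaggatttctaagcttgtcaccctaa
RT1-N2 (A_64_P057281): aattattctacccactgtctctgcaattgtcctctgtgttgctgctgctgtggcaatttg
RT1-CE10 (A_44_P389019): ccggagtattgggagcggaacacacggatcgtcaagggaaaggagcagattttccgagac

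The following 3 probes moved the opposite way in the same rats. Capitals mark the run of 25 bases shared by RT1-A1 (chr20:5059134-5059193, plus strand) and RT1-T24-1 (chr20:2922682-2922741, plus strand), and the 17 bases of it that RT1-CE16 also holds.
RT1-A1 (A_64_P032913): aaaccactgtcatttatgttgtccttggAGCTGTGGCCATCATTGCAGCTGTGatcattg
RT1-T24-1 (A_64_P105540): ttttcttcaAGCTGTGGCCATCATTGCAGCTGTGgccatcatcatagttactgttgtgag
RT1-CE16 (A_44_P867246): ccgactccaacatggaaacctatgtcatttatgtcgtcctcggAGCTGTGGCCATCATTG

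RefSeq promoter windows on GRCr8, 250 bases before to 50 bases after the gene start, were found for 35 RT1 symbols among 33469 genes. The NF-kappaB element of the class I enhancer A has the letters of the longest run of capitals in the first 2 promoters printed here. Sought on both strands, it was found in 7 RT1 windows (20%), against 21 of all windows (0.0627%, the RT1 windows included). The 7 windows were those of RT1-A1, RT1-A2, RT1-CE4, RT1-CE10, RT1-CE11, RT1-CE13 and RT1-CE16. CCAAT, the core that NF-Y binds, was found in 27 RT1 windows (77.1%), against 37.5% of all. A fixed letter pattern for the core of the interferon-stimulated response element was found in 3 RT1 windows (8.57%), against 3.92% of all. They were those of RT1-S2, RT1-N3 and RT1-S3. Other spellings of this element were not sought, so a window without a match, such as that of RT1-A1, cannot be said to lack it. Matches of different motifs did not overlap in any RT1 window (0 overlaps). A match is a run of letters and does not show binding. A classical class I, a non-classical class I and a class II promoter are shown, with matches in capitals (the letters ATTGG are CCAAT on the other strand), for RT1-A1 at chr20:4906959-4907258 (plus strand), RT1-CE10 at chr20:3384930-3385229 (minus strand) and RT1-Da at chr20:4515165-4515464 (plus strand).
RT1-A1 promoter: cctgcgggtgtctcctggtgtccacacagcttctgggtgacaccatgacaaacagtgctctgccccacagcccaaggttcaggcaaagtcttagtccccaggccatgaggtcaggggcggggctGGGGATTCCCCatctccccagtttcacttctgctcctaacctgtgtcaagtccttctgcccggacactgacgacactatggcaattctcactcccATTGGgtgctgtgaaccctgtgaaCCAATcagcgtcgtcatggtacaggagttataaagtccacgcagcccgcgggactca
RT1-CE10 promoter: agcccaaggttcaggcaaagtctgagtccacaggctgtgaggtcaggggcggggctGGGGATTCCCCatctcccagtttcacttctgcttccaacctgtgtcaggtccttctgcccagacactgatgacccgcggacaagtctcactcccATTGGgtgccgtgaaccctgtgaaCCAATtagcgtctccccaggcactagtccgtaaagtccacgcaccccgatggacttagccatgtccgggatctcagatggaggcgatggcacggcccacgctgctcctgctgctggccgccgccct
RT1-Da promoter: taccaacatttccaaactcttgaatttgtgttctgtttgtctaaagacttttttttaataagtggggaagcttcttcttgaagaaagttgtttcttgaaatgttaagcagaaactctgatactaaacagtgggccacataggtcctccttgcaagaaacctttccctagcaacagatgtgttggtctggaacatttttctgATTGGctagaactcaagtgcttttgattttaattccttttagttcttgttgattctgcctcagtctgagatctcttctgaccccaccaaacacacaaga

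A level is the log2 ratio of a probe's signal to its array's 75th percentile, so that 0 is that percentile, and differences are on the log2 scale. Across arrays the 75th percentile was 433 to 1284 signal units, against a local background of 38 to 48, and the number of arrays limits the precision. The 24 arrays lay on 3 slides of 8, and slides overlapped diets only in part. Slide 1 held the 6 rats of low copper with 30% sucrose and 2 of adequate copper with 30% sucrose, slide 2 the other 4 of that diet and 4 of low copper with 10% sucrose, and slide 3 the other 2 of that diet and the 6 control rats. Called differences of RT1 probes are therefore also given with slide as a block. For the copper differences at 30% and at 10% sucrose that estimate equals the one within slide 1 and within slide 3, and no slide held both diets of a sucrose comparison. The summed level of a gene list is the log2 of the signals of its genes added together, so the strongest genes weigh most. Of 10 hepatocyte markers all 10 were kept, with summed levels of 10.53 to 11.74 over the 24 rats. The samples are whole liver, so fewer cells of a type and less RNA for each cell cannot be told apart.

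**Figure D1:**
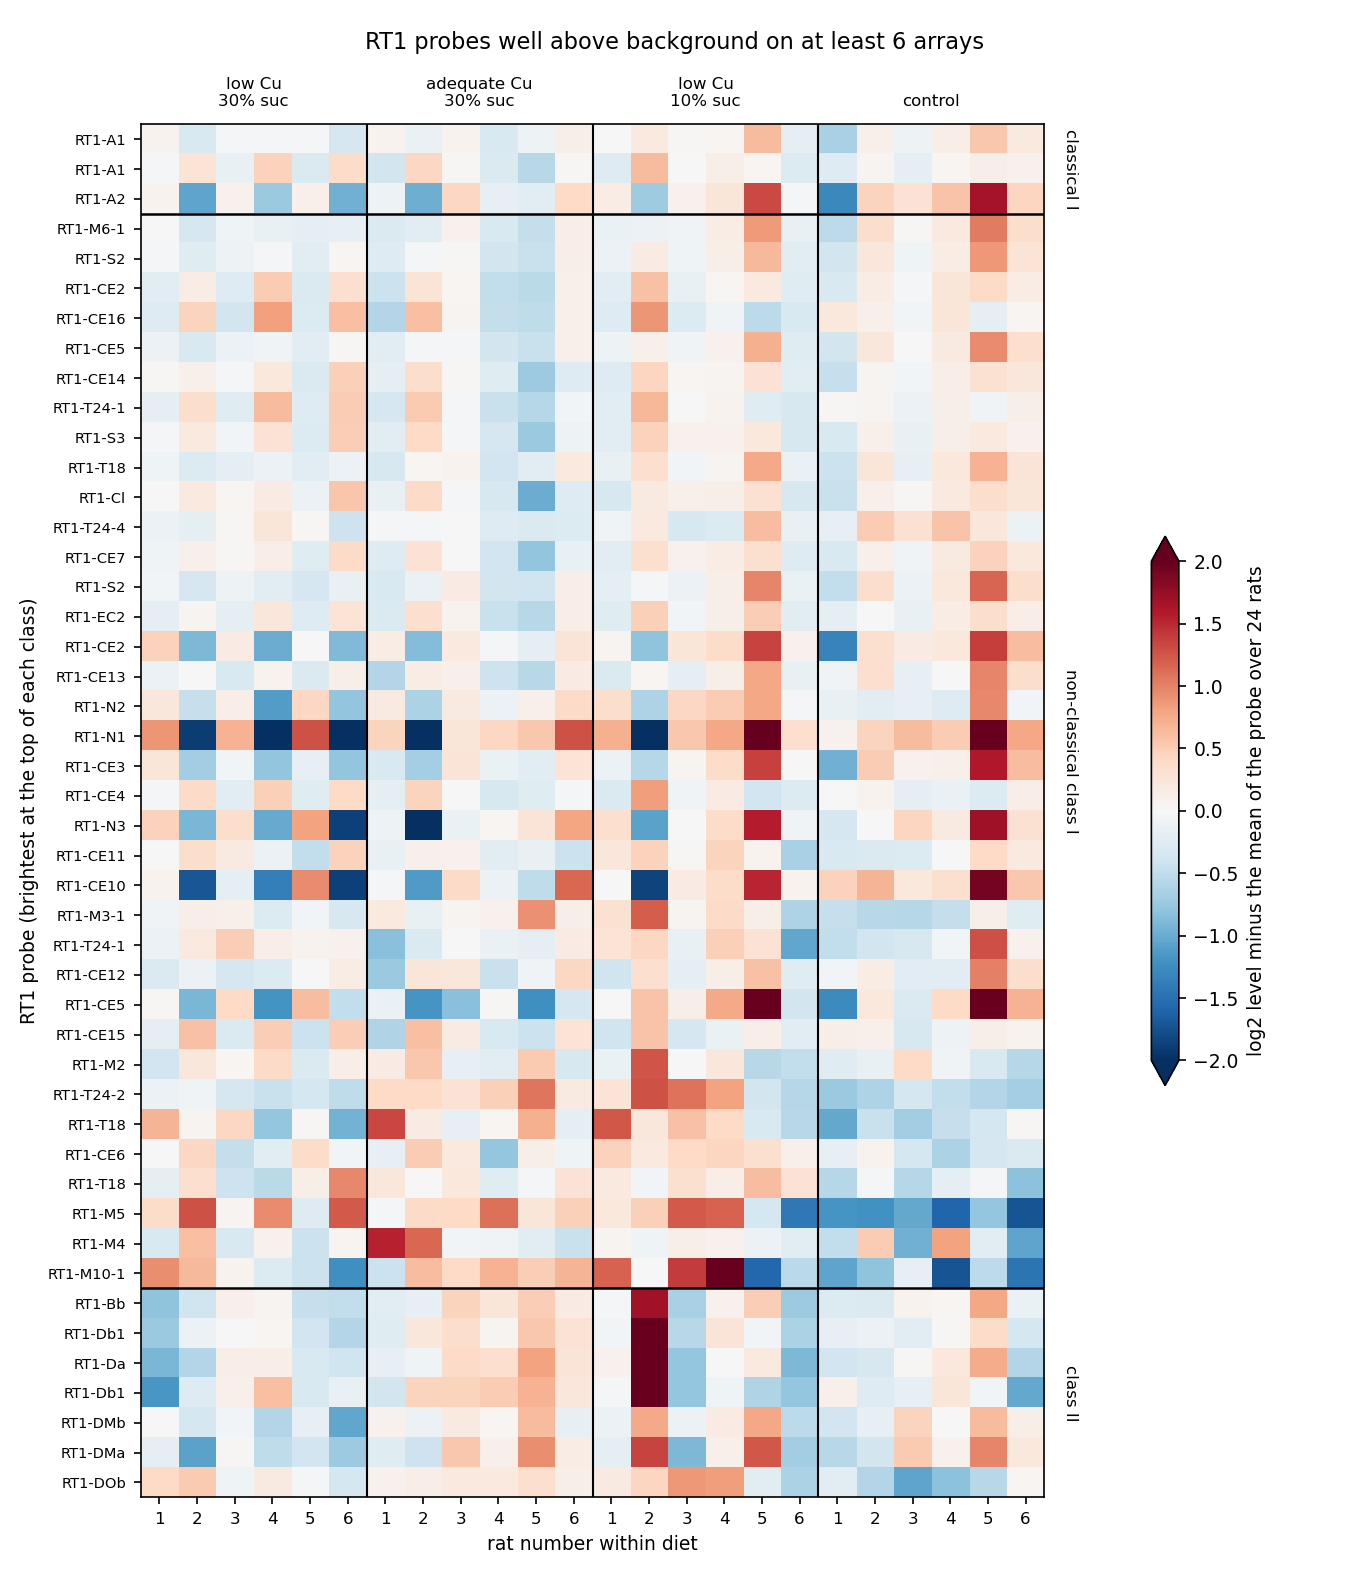
Levels of the 46 tested RT1 probes (rows, by class) in 24 rats (columns, by diet), each as the log2 level minus the mean of that probe over all rats, with colours ending at 2 and -2. Rat 2 of low copper with 10% sucrose is high in RT1-Bb, RT1-Da and RT1-Db1. Rats 2, 4 and 6 of low copper with 30% sucrose, and rat 2 of both adequate copper with 30% sucrose and low copper with 10% sucrose are low in RT1-N1, RT1-N3 and RT1-CE10.

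All 3 classical class I probes were well above background on all 24 arrays, and none of them was called in any comparison. The first probe of RT1-A1 had a level of 5.82, 6.13 and 6.24 (lowest, median and highest rat) in low copper with 30% sucrose, 5.85, 6.15 and 6.28 in adequate copper with 30% sucrose, 5.98, 6.19 and 6.80 in low copper with 10% sucrose, and 5.51, 6.28 and 6.70 in control rats. The ranges of all 4 diets overlapped. Low copper differed from adequate copper by -0.06 ± 0.16 (SE) at 30% sucrose (limma, adjusted p = 0.902) and by 0.08 ± 0.16 at 10% sucrose (limma, adjusted p = 0.809). The second probe of RT1-A1 averaged 4.07 ± 0.30 in low copper with 30% sucrose, 3.84 ± 0.35 in adequate copper with 30% sucrose, 4.01 ± 0.33 in low copper with 10% sucrose and 3.94 ± 0.16 in control rats (SD, n = 6 each). RT1-A2 averaged 2.29 ± 0.56 in low copper with 30% sucrose, 2.61 ± 0.51 in adequate copper with 30% sucrose, 2.88 ± 0.66 in low copper with 10% sucrose and 3.07 ± 0.94 in control rats (SD, n = 6 each). The largest of its 5 differences between diets, -0.77 ± 0.37 (SE) for low copper with 30% sucrose against control, did not pass the test (limma, adjusted p = 0.299) and was 0.57 with slide as a block. B2m, the light chain of class I molecules, averaged 6.90 ± 0.14, 6.88 ± 0.18 and 6.87 ± 0.22 in the 3 other diets in the order above and 6.91 ± 0.20 in control rats (SD, n = 6 each). Of 14 tested genes for class I assembly and peptide supply (the peptide transporter, its partners and the immunoproteasome), 0 were called in any of the 6 comparisons by limma, with or without the slide block.

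Of 41 non-classical class I probes 36 were tested. The other 5, those of RT1-M1-2, RT1-M1-4, both of RT1-M1-5 and 1 of 2 of RT1-M6-1, were well above background on 0 to 3 of 24 arrays, while the other RT1-M6-1 probe was so on all 24. That probe averaged 3.68 ± 0.12 in low copper with 30% sucrose, 3.66 ± 0.24 in adequate copper with 30% sucrose, 3.93 ± 0.39 in low copper with 10% sucrose and 4.07 ± 0.51 in control rats (SD, n = 6 each). It shares 26 bases with the probes of RT1-S2 and RT1-CE5 printed above, and the RT1-S2 probe averaged 3.69 ± 0.11, 3.63 ± 0.22 and 3.87 ± 0.31 in the 3 other diets in the same order and 3.96 ± 0.41 in control rats. The spread of both was smaller in low copper with 30% sucrose than in control rats, which was not tested. The median difference of the 36 probes was 0.04 for copper at 30% sucrose (20 above 0), -0.01 for copper at 10% sucrose (18 above 0), -0.22 for sucrose at adequate copper (10 above 0, against a median of 0.06 over all tested probes) and -0.18 for sucrose at low copper (9 above 0, against -0.05). With slide as a block these medians were 0.01, 0.07, -0.16 and -0.17. Over all tested probes they were -0.08, 0.04, -0.03 and -0.16 with the block.

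The median spread between rats of the same diet was larger for RT1 probes than for all tested probes. The residual SD of the fit, which is the spread between rats of one diet, had a median of 0.391 over the 46 RT1 probes, against 0.320 over all tested probes. It was 0.557 for class II, 0.294 for classical and 0.381 for non-classical class I. A residual SD of at least 0.5 was found for 16 of 46 RT1 probes, against 19.3% of all tested probes, one of at least 1 for 1 of 46, against 1.28%, and one of at least 2 for 0 of 46, against 0.0472%. The most variable member was RT1-N1 (residual SD 1.66), a non-classical class I gene, followed by RT1-M10-1 (0.977), RT1-CE10 (0.929), RT1-N3 (0.904), 1 of 2 probes of RT1-CE5 (0.863), 1 of 2 tested probes of RT1-Db1 (0.765), RT1-A2 (0.688) and 1 of 2 probes of RT1-CE2 (0.681). The other probes of the same genes varied less, with a residual SD of 0.298 for RT1-CE5, 0.557 for RT1-Db1 and 0.317 for RT1-CE2. With slide as a block the median over RT1 probes was 0.381, against 0.307 over all tested probes.

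RT1-N1 separated the rats into a low and a high set. Its level was -4.51, -0.99 and 0.88 (lowest, median and highest rat) in low copper with 30% sucrose, -4.44, 0.04 and 0.88 in adequate copper with 30% sucrose, -2.86, 0.23 and 1.59 in low copper with 10% sucrose, and -0.32, 0.17 and 1.68 in control rats. The 5 lowest rats, at -4.51 to -2.29, were rats 2, 4 and 6 of low copper with 30% sucrose, and rat 2 of both adequate copper with 30% sucrose and low copper with 10% sucrose. The next rat stood at -0.32, which left a gap of 1.98 with no rat in it. A widest gap of at least 1, with at least 3 rats on each side, was found for RT1-N1 and for 0.231% of all tested probes, and one of at least 0.5 for RT1-N1, RT1-CE2, RT1-CE10, RT1-N3 and RT1-A2 (5 of 46) and for 3.04% of all tested probes. Slide 1 held 4 of the 5 low rats and slide 2 the other one, and on both slides rats with high levels stood beside them. No diet difference of RT1-N1 was called, and low copper with 30% sucrose differed from control by -1.64 ± 0.89 (SE; limma, adjusted p = 0.376), against 2.05 with slide as a block.

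The same 5 rats were the 5 lowest in 3 further probes, those of RT1-N3, RT1-CE10 and RT1-N2, and in no other tested probe of the array (4 probes of 21179 with RT1-N1, 0.0189%). In RT1-N3 the 5 rats lay at -3.18 to -2.03 and the next at -1.46. In RT1-CE10 they lay at -3.59 to -2.86 and the next at -2.24. In RT1-N2 they lay at -0.82 to -0.16 and the next at 0.05. They were the 5 highest in 6 probes (0.0283%), of which 5 were RT1 probes, namely 1 probe of RT1-A1, 1 of RT1-T24-1, RT1-CE4, RT1-CE15 and RT1-CE16. In that probe of RT1-A1 the 5 rats lay at 4.23 to 4.59 and the next below at 4.09. In RT1-CE16 they lay at 3.67 to 4.11 and the next below at 3.47. So rats low in some class I probes were high in others, 3 of which share all or part of the run of bases printed above. These genes were picked out after their values were seen, the rats were chosen on RT1-N1, and no test was made.

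The rats low in RT1-A2 overlapped with these. Its 6 lowest rats were the same 5 rats and control rat 1, the lowest of them at 1.43, and the next rat above them stood at 2.50. Exactly these 6 rats were the lowest in 5 probes of the array (0.0236%), all of RT1 genes: RT1-A2, RT1-N1, RT1-N3, RT1-CE3 and 1 probe of RT1-CE2. In RT1-CE2 the 6 rats lay at -0.17 to 0.36 and the next at 0.98. The 2 highest rats of RT1-A2 were control rat 5 at 4.37 and rat 5 of low copper with 10% sucrose at 4.03, and the next rat was at 3.28. These 2 rats were the 2 highest in 16 of 46 RT1 probes, RT1-A2 included, and in 0.784% of all tested probes.

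**Figure D2:**
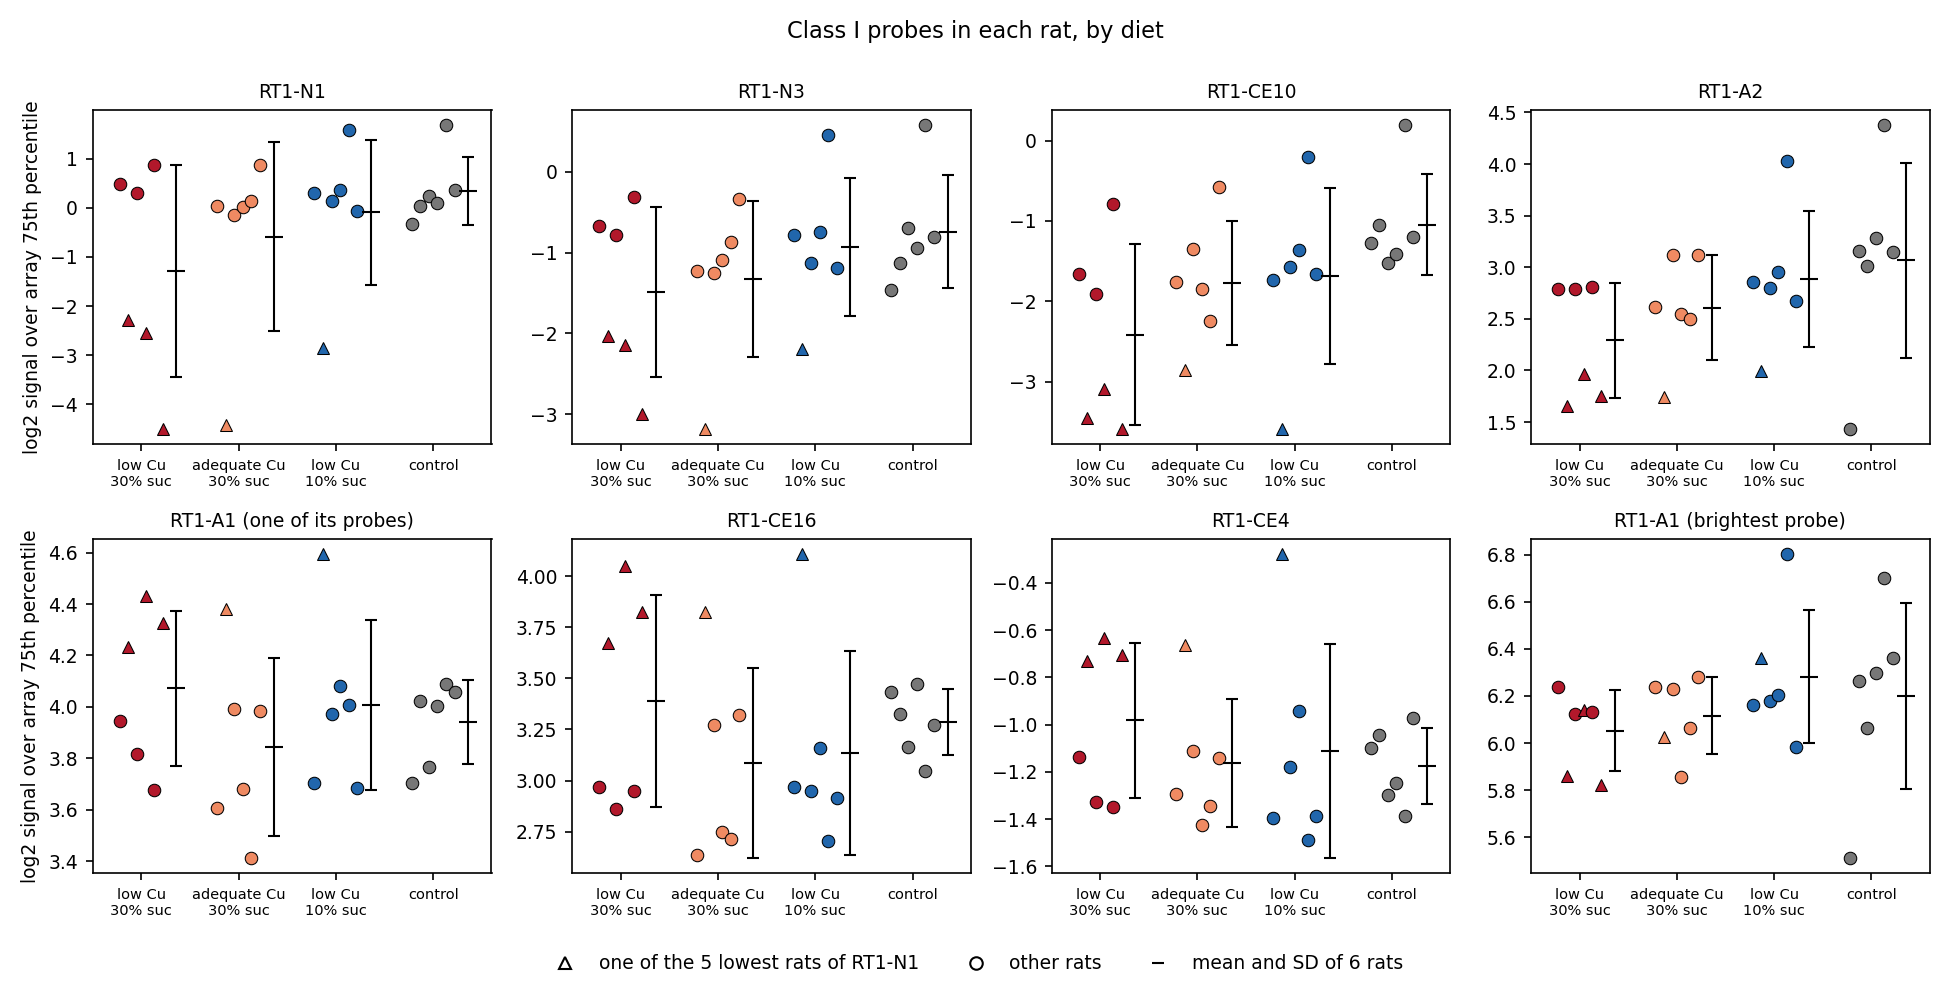
Levels (log2 signal over the array's 75th percentile) of 8 class I probes in each rat, by diet, with the mean and SD of 6 rats beside each group. Triangles are the 5 lowest rats of RT1-N1, which lie below all others in RT1-N3 and RT1-CE10, above all others in 1 probe of RT1-A1, in RT1-CE16 and in RT1-CE4, and among the others in the second RT1-A1 probe drawn.

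The class II molecules RT1-D and RT1-B present peptides to CD4+ T cells. Of 11 class II probes 7 were tested. RT1-Ba, RT1-DOa, RT1-Ha and 1 of 2 probes of RT1-Bb were well above background on 0 or 1 of 24 arrays, while the other RT1-Bb probe was so on all 24. RT1-Bb, a beta chain, had a level of 0.98, 1.35 and 1.89 (lowest, median and highest rat) in low copper with 30% sucrose, 1.57, 1.99 and 2.27 in adequate copper with 30% sucrose, 1.05, 1.80 and 3.46 in low copper with 10% sucrose, and 1.49, 1.73 and 2.55 in control rats. Ranges overlapped, and the highest value was that of rat 2 of low copper with 10% sucrose.

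That rat stood apart in RT1-Bb, RT1-Da and RT1-Db1, but not in the other tested class II probes. It had 0.06 in RT1-DMa and 0.79 in RT1-DMb, where rat 5 of its diet had -0.04 and 0.80. In RT1-DOb it had -3.48, below rats 3 and 4 of its diet (-3.05 and -3.07). In RT1-Da, the alpha chain of the D molecule, it had 3.30 and the next rat of its diet 1.43. In the 2 tested probes of RT1-Db1, the beta chain, it had 3.46 and 3.34, against 1.62 and 0.68 for the next rat of its diet. Its summed levels of macrophage (5.88, the next of all rats 5.18) and T and NK cell markers (1.94, the next 1.63) were also the highest of the 24 rats. So were those of the genes for class II assembly (6.63, the next 6.1) and of interferon and its signalling (5.37, the next 4.99). For dendritic cell markers (0.062, the next 0.025) and class I assembly (7.97, the next 7.96) this rat was the highest by little. From the highest of the 24 rats, its neutrophil markers (1.79) had rank 2 and its B cell markers (-1.58) rank 3. The part of these in its class II levels was not tested. Only 4 of 8 B cell markers and 5 of 9 dendritic cell markers passed the filter, and Ms4a1, Cd22, Itgax and Xcr1 were among those left out.

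In low copper with 30% sucrose all 7 class II differences from adequate copper with 30% sucrose were below 0, with a median of -0.50, against -0.04 over all tested probes. None of them was called (limma, 0 of 46 RT1 probes and 0% of 21179 probes). With slide as a block the median was -0.20, against -0.08 over all tested probes. An unadjusted p under 0.05 was found for 1 of 7, RT1-DMb, a subunit of the molecule that loads peptides onto class II in endosomes. Its level was -1.01, -0.22 and 0.03 in low copper with 30% sucrose, against -0.13, 0.09 and 0.67 in adequate copper with 30% sucrose. The difference was -0.48 ± 0.22 (SE; limma, adjusted p = 0.503). Its partner RT1-DMa differed by -0.65 ± 0.35 (SE; limma, adjusted p = 0.535), with a mean of -1.77 ± 0.39 in low copper with 30% sucrose and -1.11 ± 0.50 in adequate copper with 30% sucrose (SD, n = 6 each). RT1-Da differed by -0.58 ± 0.35 and RT1-Bb by -0.50 ± 0.29 (SE), neither past the test (limma, adjusted p = 0.571 and 0.566). The macrophage markers summed to 3.50 to 4.61 in low copper with 30% sucrose and 4.08 to 5.18 in adequate copper with 30% sucrose, over 9 of 10 listed genes. The medians of the other summed immune markers were also lower in low copper with 30% sucrose than in adequate copper with 30% sucrose, at 0.76 and 1.04 for T and NK cells, -2.30 and -1.95 for B cells, -0.91 and -0.61 for dendritic cells, and -1.90 and -0.48 for neutrophils. Over the single genes, the median difference was -0.43 for macrophages, -0.40 for T and NK cells, -0.69 for B cells, -0.31 for dendritic cells and -1.05 for neutrophils. With slide as a block these were -0.29, -0.19, -0.64, -0.14 and -0.25. The part of these markers in the class II values was not tested.

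**Figure D3:**
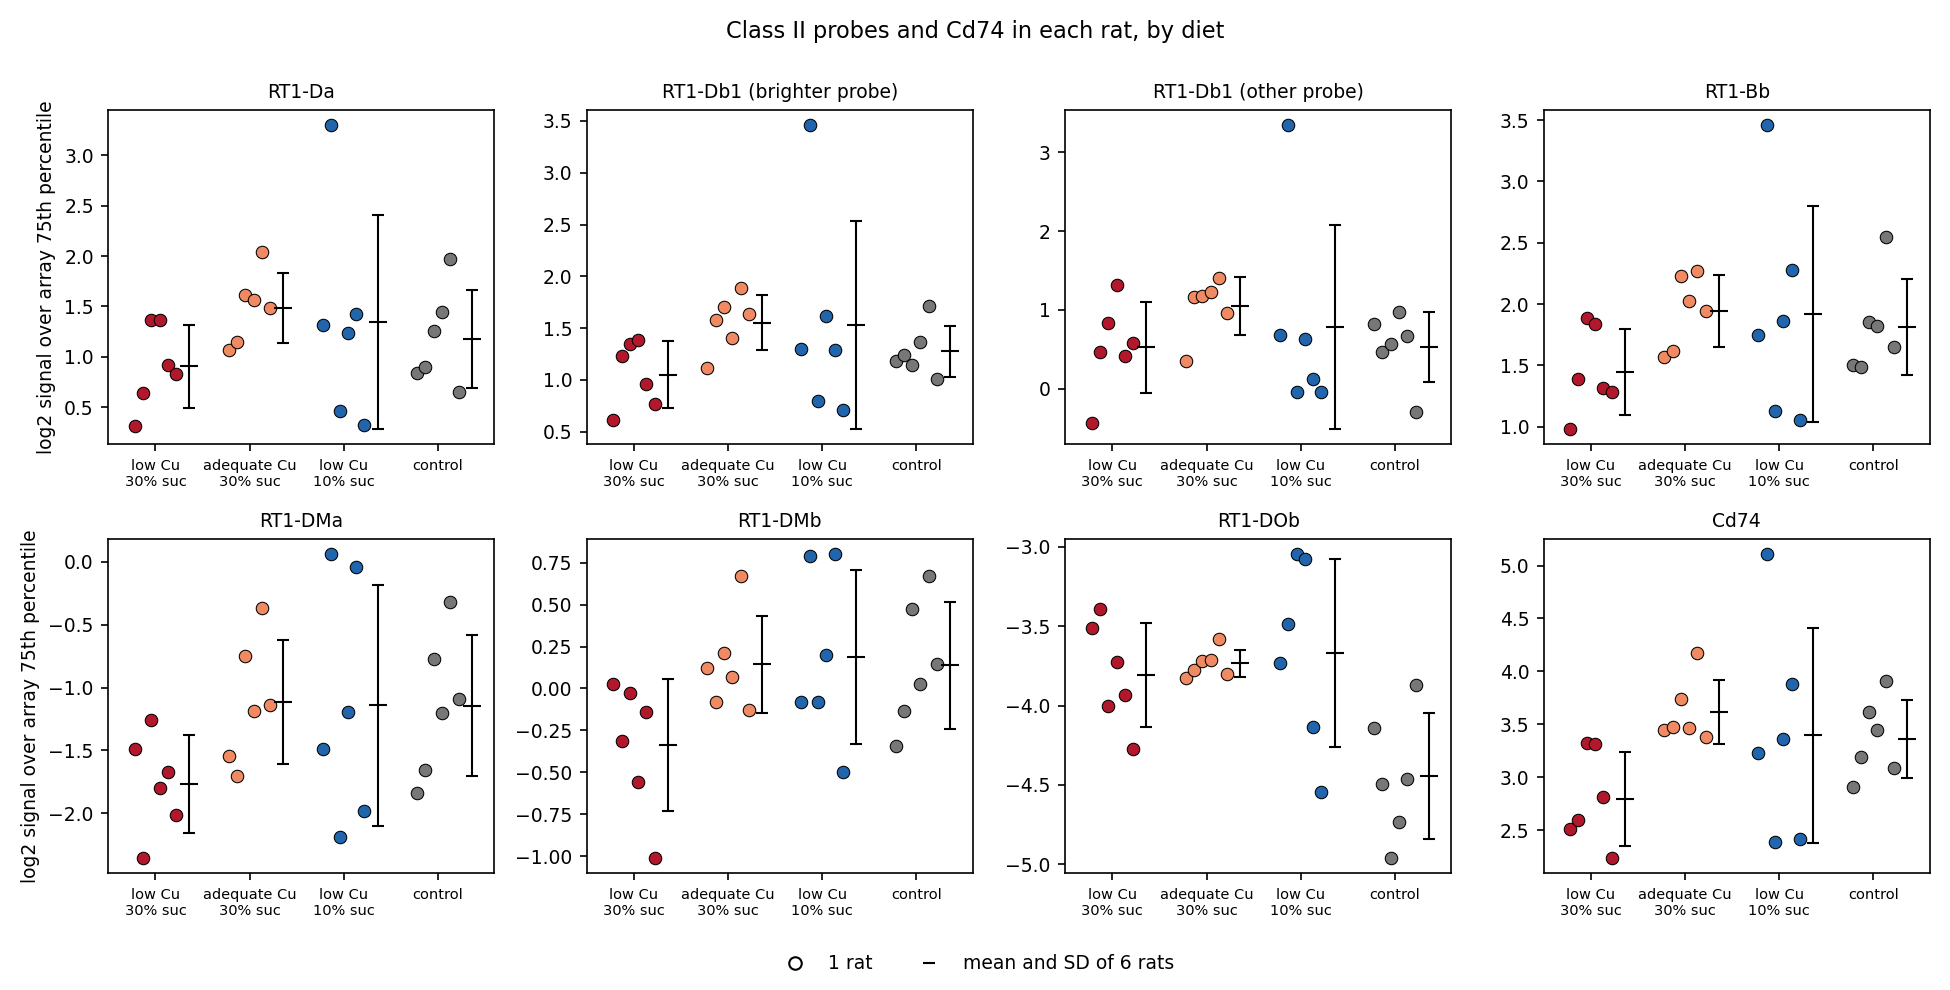
Levels (log2 signal over the array's 75th percentile) of the 7 tested class II probes and of Cd74 in each rat, by diet, with the mean and SD of 6 rats beside each group. Rat 2 of low copper with 10% sucrose is the highest point in RT1-Da, RT1-Db1, RT1-Bb and Cd74, and control rats are the lowest group in RT1-DOb.

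Class II levels other than that of RT1-DOb followed Cd74, the invariant chain that guides class II molecules to endosomes. Cd74 lay between 2.23 and 3.32 in low copper with 30% sucrose, 3.38 and 4.17 in adequate copper with 30% sucrose, 2.38 and 5.11 in low copper with 10% sucrose, and 2.91 and 3.91 in control rats. Its copper difference at 30% sucrose was -0.82 ± 0.33 (SE; limma, adjusted p = 0.478), and -0.66 with slide as a block. Across 24 rats the level of RT1-Bb followed that of Cd74 with Pearson's r = 0.947 and Spearman's rho = 0.895, and 7 such relations were computed. The two-sided permutation p was 1e-05 for both, the smallest that 100000 resamples can give, and 1.75e-05 and 1.4e-05 after Benjamini-Hochberg adjustment. Without the 2 rats farthest from the median of Cd74, r was 0.926, and within slides 1, 2 and 3 it was 0.794, 0.982 and 0.949. For the other chains r was 0.930 (RT1-Da), 0.884 and 0.750 (RT1-Db1), 0.869 (RT1-DMa) and 0.798 (RT1-DMb), with an adjusted permutation p of r of at most 0.000222, and 0.614 to 0.921 without those 2 rats. The second RT1-Db1 probe had the weakest relation within a slide, 0.323 on slide 3. RT1-DOb, a subunit of an inhibitor of RT1-DM, did not follow Cd74 (r = -0.00431, rho = 0.00783, permutation p = 0.984 and 0.972, r = -0.23 without the 2 rats). Both levels of a point come from the same array, and the part of cell content in these relations was not tested.

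**Figure D4:**
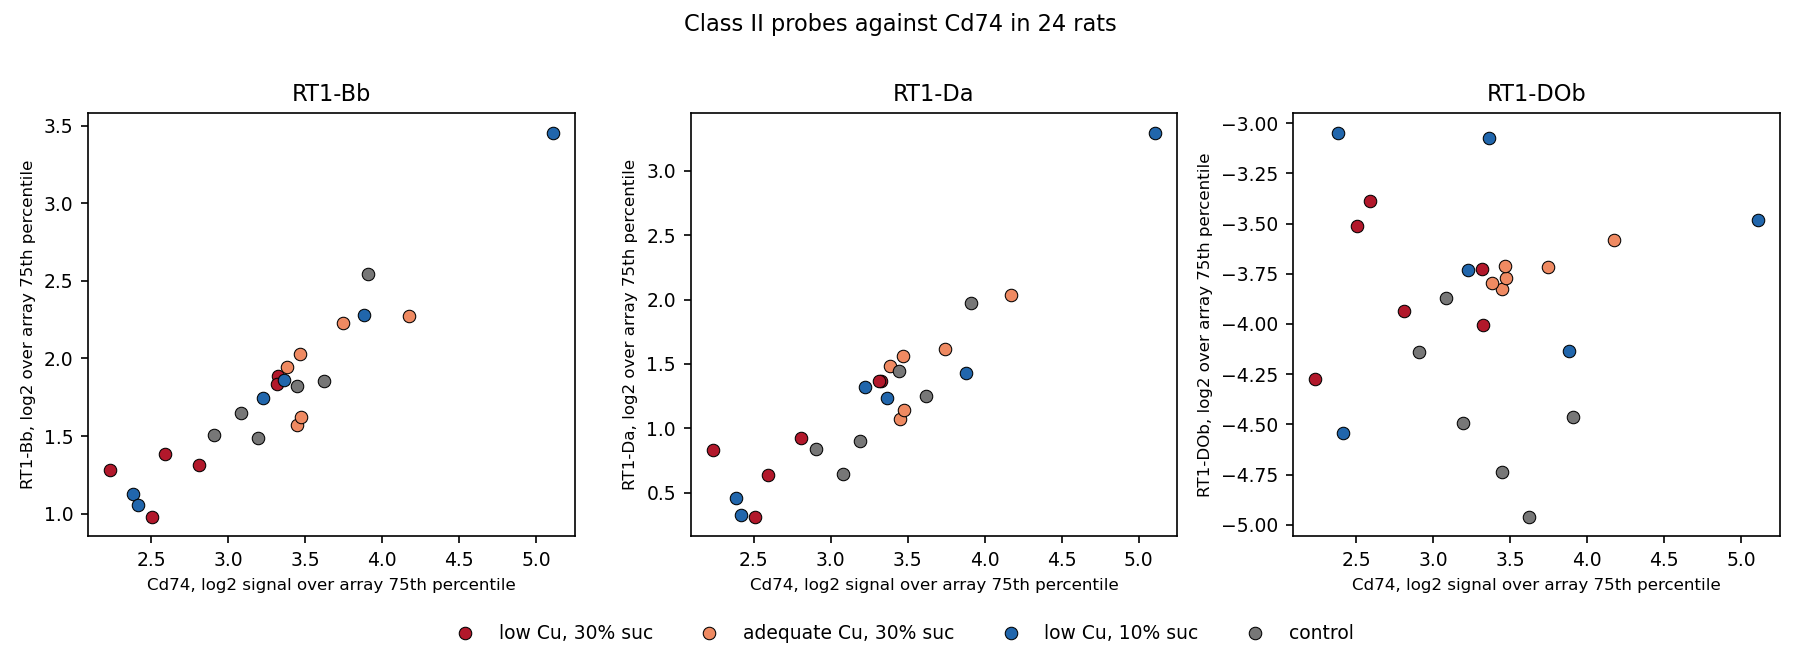
RT1-Bb, RT1-Da and RT1-DOb (vertical axes) against Cd74 (horizontal axis), both as log2 signal over the array's 75th percentile, in 24 rats coloured by diet. RT1-Bb and RT1-Da rise with Cd74 (r = 0.947 and 0.930), and RT1-DOb does not (r = -0.00431).

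In low copper with 10% sucrose, 6 of 46 RT1 probes were higher than in control rats and 0 were lower (limma, adjusted p under 0.05), against 17.3% of all tested probes higher, 0.557% lower and 17.8% in either direction. The 6 probes were those of RT1-M10-1, RT1-M5, RT1-T24-2, RT1-DOb, RT1-CE6 and 1 of 3 tested probes of RT1-T18. Their mean levels over 24 rats were -5.85 to -3.44, and among all tested probes with signals no stronger than these 34.9% were called, against 10.4% of those with stronger signals. With slide as a block 0 RT1 probes and 0% of all tested probes were called, with 1 of 46 RT1 probes at an unadjusted p under 0.05. The median difference over RT1 probes was 0.03, against 0.05 over all tested probes.

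RT1-M5, a non-classical class I gene, had a level of -6.04, -4.27 and -3.39 (lowest, median and highest rat) in low copper with 10% sucrose, against -6.34, -5.82 and -5.39 in control rats, and only rat 6 of low copper with 10% sucrose fell within the control range. It was well above background in 5 of 6 rats of low copper with 10% sucrose and in 1 of 6 control rats. It was higher by 1.47 ± 0.35 (SE; limma, adjusted p = 0.00524), a size that rests on control readings mostly not well above background, against 0.37 with slide as a block (adjusted p = 0.969). RT1-T24-2 was higher by 0.997 ± 0.24 (SE; limma, adjusted p = 0.00507), and by 0.11 with slide as a block. Its levels in low copper with 10% sucrose were -4.00, -2.89 and -2.16, and in control rats -4.18, -4.04 and -3.79. RT1-DOb was higher by 0.77 ± 0.22 (SE; limma, adjusted p = 0.0152), with a mean of -3.67 ± 0.59 in low copper with 10% sucrose and -4.44 ± 0.39 in control rats (SD, n = 6 each), and by 0.10 with slide as a block.

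RT1-M10-1 belongs to a family whose mouse members are expressed in the vomeronasal organ. It was well above background in 3 of 6 rats of low copper with 10% sucrose and in 0 of 6 control rats. Its mean in low copper with 10% sucrose was -5.25 and that in control rats -6.80 (limma, adjusted p = 0.0437), and no fold is given because most of these readings were not well above background. Its difference with slide as a block was -0.095. The call was lost in 7 of 12 fits that left out 1 rat (limma, adjusted p of 0.00475 to 0.125). RT1-CE6, named because it was the sixth call, was higher by 0.60 ± 0.18 (SE; limma, adjusted p = 0.0176) and by 0.49 with slide as a block (adjusted p = 0.784), and its groups did not overlap, as was true of 1 of 46 RT1 probes and 5.06% of all tested probes. RT1-T18 was higher by 0.62 ± 0.20 (SE; limma, adjusted p = 0.0324) and by 0.82 with slide as a block (adjusted p = 0.648). That call was lost in 5 of 12 fits that left out 1 rat (limma, adjusted p of 0.0255 to 0.0799). The other 2 tested RT1-T18 probes differed by 0.76 ± 0.31 and 0.00 ± 0.17 (SE) and were not called (limma, adjusted p = 0.105 and 0.999).

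The difference between 30% and 10% sucrose at adequate copper involved 3 of those genes. Of 46 RT1 probes 3 were higher and 0 lower in adequate copper with 30% sucrose (limma), against 17.6% of all tested probes higher and 2.41% lower, and 20% in either direction. RT1-M5 had a level of -4.65, -4.23 and -3.51 in adequate copper with 30% sucrose, against -6.34, -5.82 and -5.39 in control rats. It was higher by 1.68 ± 0.35 (SE; limma, adjusted p = 0.00264), and by 0.15 with slide as a block, and with 1 of 6 control rats well above background the size is uncertain. RT1-T24-2 was higher by 1.05 ± 0.24 (SE; limma, adjusted p = 0.00407), and by -0.24 with slide as a block, and RT1-DOb by 0.71 ± 0.22 (SE; limma, adjusted p = 0.0252) and by -0.26. In all 3 genes the 2 groups did not overlap (3 of 46 RT1 probes, against 12.1% of all tested probes). No slide held rats of both diets, so slide and sucrose cannot be told apart without the chain of shared diets that the block uses. The 3 probes had mean levels of -4.62 to -3.44, and 34.5% of all tested probes with signals no stronger were called. Both sets of calls share the same control rats.

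In low copper with 30% sucrose against low copper with 10% sucrose no RT1 probe was called (limma, 0 of 46 and 0% of all tested probes), and 2 of 46 had an unadjusted p below 0.05. The 3 smallest p belonged to RT1-T24-2 (-0.72 ± 0.24), RT1-DMb (-0.52 ± 0.22) and RT1-N2 (-0.50 ± 0.27, SE), with limma adjusted p of 0.463, 0.501 and 0.558. All 7 class II differences were again below 0, with a median of -0.47, against -0.05 over all tested probes. With slide as a block the median was -0.19 for class II and -0.16 over all tested probes. Both class II comparisons share the same rats of low copper with 30% sucrose, and no slide held both diets compared here. RT1-T24-2 and RT1-Cl had 2 of the 3 smallest p in the copper difference at 30% sucrose. RT1-T24-2 lay at -3.95, -3.78 and -3.51 in low copper with 30% sucrose and at -3.25, -3.04 and -2.36 in adequate copper with 30% sucrose, with no overlap (1 of 46 RT1 probes, against 0.685% of all tested probes). The difference of -0.77 ± 0.24 (SE) did not pass the test over all probes (limma, adjusted p = 0.46), and it was -0.70 within slide 1, where only 2 rats of adequate copper with 30% sucrose lay. RT1-Cl differed by 0.36 ± 0.18 (SE; limma, adjusted p = 0.521).

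Low copper and 30% sucrose together, against control, gave 1 call among 46 RT1 probes (limma, higher), against 1.6% of all tested probes higher, 0.0378% lower and 1.64% in either direction. It was RT1-M5, at -4.87, -3.96 and -3.35 in low copper with 30% sucrose, with no overlap with control rats (1 of 46 RT1 probes, against 2.92% of all tested probes). The difference was 1.85 ± 0.35 (SE; limma, adjusted p = 0.0254), and 0.58 with slide as a block (adjusted p = 0.999). RT1-M5 was called higher in each of the 3 other diets against the same 6 control rats, of which 1 was well above background, so the sizes are uncertain.

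The interaction of copper and sucrose was called for 2 RT1 probes in the fit without slide. Of 46 RT1 probes 2 had a lower copper difference at 30% than at 10% sucrose and 0 a higher one (limma, interaction), against 18.2% of all tested probes lower, 1.9% higher and 20.1% in either direction. The 2 probes had mean levels of -3.44 and -2.05. Among all tested probes with signals no stronger 32% were called, against 9.34% of those with stronger signals. For RT1-T24-2 the interaction was -1.77 ± 0.34 (SE; limma, adjusted p = 0.00197). Its means were -3.74 ± 0.18 in low copper with 30% sucrose, -2.97 ± 0.31 in adequate copper with 30% sucrose, -3.02 ± 0.77 in low copper with 10% sucrose and -4.02 ± 0.14 in control rats (SD, n = 6 each). RT1-M3-1, whose mouse counterpart presents formylated peptides of bacteria, had an interaction of -0.89 ± 0.30 (SE; limma, adjusted p = 0.0403), with copper differences of -0.28 ± 0.21 at 30% sucrose and 0.61 ± 0.21 at 10% sucrose (SE), neither called alone. With slide as a block the interactions were -0.81 and -0.22, and neither was called (limma, adjusted p = 0.296 and 0.846). Across all tested probes 0.0472% were called with the block, all with a lower copper difference at 30% sucrose. The call of RT1-M3-1 was lost in 12 of 24 fits that left out 1 rat, with adjusted p of 0.00529 to 0.0767.

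**Figure D5:**
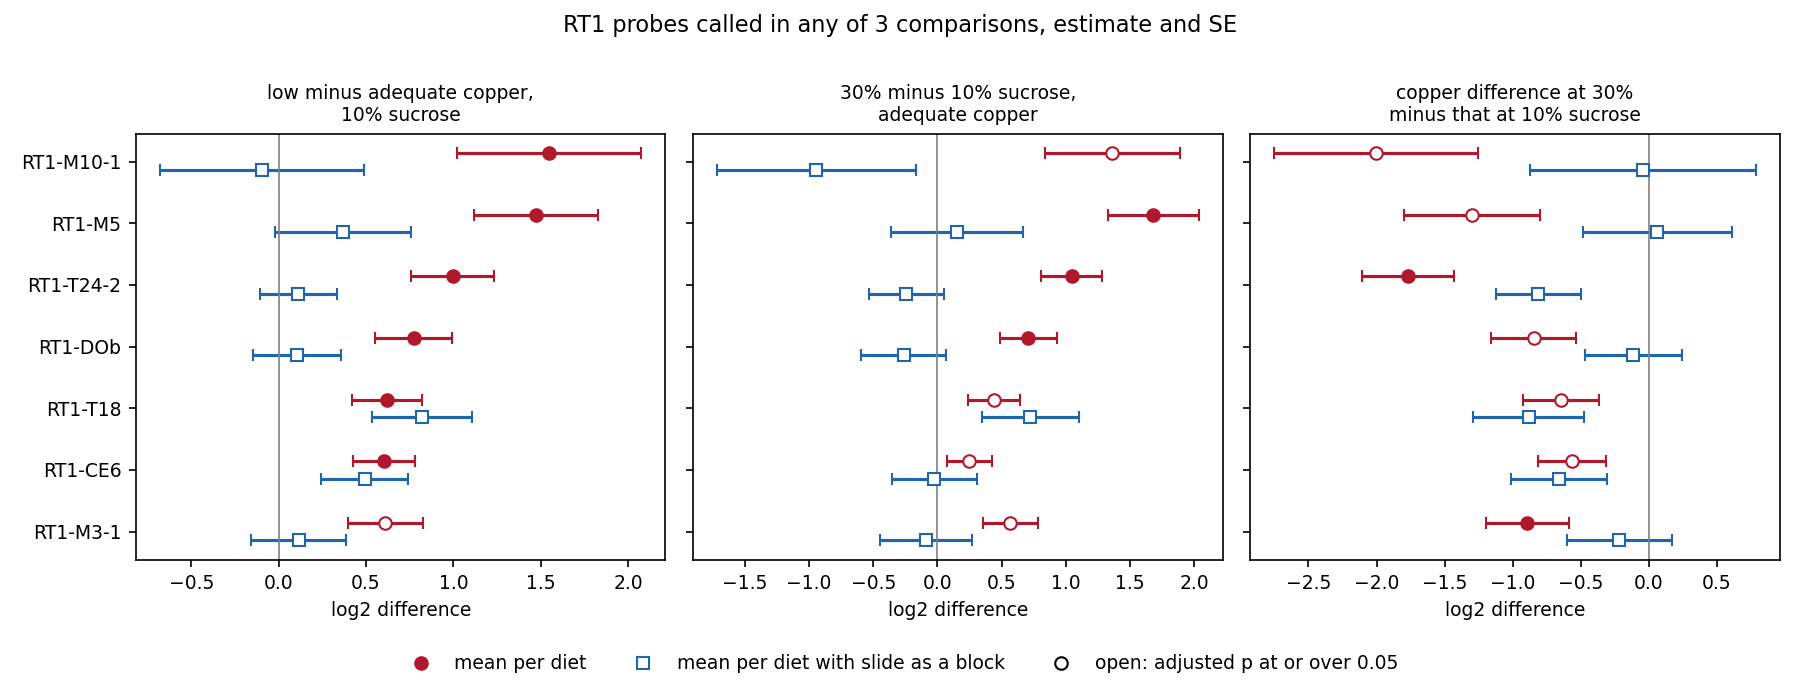
Log2 differences with their SE for 7 RT1 probes in 3 comparisons, from the fit with a mean for each diet (circles) and with slide as a block (squares). Filled symbols have an adjusted p under 0.05, no square is filled, and the differences of RT1-M10-1, RT1-M5, RT1-T24-2 and RT1-DOb at 10% sucrose lie nearer 0 with the block.

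Calls among genes that control MHC expression are given beside the share of all tested probes. Of 16 tested genes for interferon and its signalling, Irf2, a regulator of interferon-responsive genes, and Socs1, an inhibitor of cytokine signalling, were called higher in low copper with 10% sucrose than in control rats, by 0.89 ± 0.16 and 1.25 ± 0.25 (SE; limma, adjusted p = 0.000962 and 0.00193), which is 2 of 16, against 17.3% of all tested probes called higher. Of 11 tested genes for class II assembly and control, 2 were called higher there, against the same 17.3%, Nfya and Rfx5, which are parts of the NF-Y and RFX complexes that bind class II promoters, by 0.70 ± 0.17 and 0.79 ± 0.23 (SE; limma, adjusted p = 0.00525 and 0.0181). In adequate copper with 30% sucrose Irf2, Socs1 and Jak2, the kinase behind the interferon-gamma receptor, were called higher than in control rats (3 of 16), with Rfx5 (1 of 11), against 17.6% of all tested probes called higher. The call of Jak2 was lost in 7 of 12 fits that left out 1 rat (limma, adjusted p of 0.0306 to 0.0948). Irf2 averaged -5.40 ± 0.23 in low copper with 30% sucrose, -5.10 ± 0.19 in adequate copper with 30% sucrose, -5.23 ± 0.35 in low copper with 10% sucrose and -6.12 ± 0.28 in control rats (SD, n = 6 each). Irf2 was thus weaker in control rats than the median of RT1-M5 there, given above, and the sizes of its differences are uncertain. It was the only one of these genes called in low copper with 30% sucrose against control, where 1.6% of all tested probes were called higher. The difference was 0.72 ± 0.16 (SE; limma, adjusted p = 0.0331), and this call was lost in 8 of 12 fits that left out 1 rat (limma, adjusted p of 0.0225 to 0.104). With slide as a block 0 genes of these lists were called in any comparison. Ciita, the switch of class II transcription, was not called in any of them, and averaged -3.78 ± 0.46, -3.38 ± 0.54 and -3.47 ± 0.54 in the 3 other diets in the order of the sentence on Irf2 and -3.26 ± 0.47 in control rats (SD, n = 6 each).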

How the data were processed

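RNA from 24 livers was measured on one-colour arrays, and no paper was used. Agilent Feature Extraction 10.7.3.1 read the spots, per the file headers, and probe positions refer to rn4. The processed signal that the authors deposited is an intensity from which background and spatial trend were removed on each array, unscaled between arrays, per the file headers. The authors' series table is a score with a common scale on every array, which ranks spots as the mean signal does, and how that scale was set is not given in the sources used here. The deposited marks of spots, such as well above background, are of another kind (unit other) and served only as marks.

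Of 62976 spots 4259 were controls. These and marked spots (0.652%) were left out, and a probe with all its spots marked kept them. After the log2 step each array's 75th percentile was taken off and the spots of a probe were averaged. A mean for each diet was fitted over all 24 arrays (limma 3.58.1, R 4.3.3), two-sided, with Benjamini-Hochberg adjustment over 21179 probes and a threshold of 0.05. The fit was tested on simulated data. Rats are separate animals, 6 in each diet, and replicate numbers did not pair them (correlations of deviations -0.30 to 0.36). Of the 55 RT1 probes 47 matched a current symbol by accession, and other names are those of the array.

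Members and gene lists were chosen with earlier results of these data known. In each comparison the RT1 probes named were up to 5 called with the largest rise and up to 5 with the largest fall, or otherwise the 3 smallest p. The 3 strongest probes of each class, the 8 with the largest residual SD and up to 4 genes of the antigen presentation lists with the smallest p in each comparison could be added, and the text describes a selection. Alternatives were normexp (offset 50), quantile normalization, the authors' table rescaled with a floor of 5, other filters, slide or replicate blocks, one probe for each gene, fits of fewer groups or 1 slide, and leaving out each rat.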

Additional observations from a re-analysis of the deposited data

Results flagged for a closer look

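Of 96 groups of 6 rats (24 named probes in 4 diets), 14 held 1 rat farther from the others than Dixon's criterion allows. Chance flags about 1 in 20 groups, but the probes were chosen partly for a large spread and share their rats, so 14 of 96 cannot be set against that rate. Rat 2 of low copper with 10% sucrose was high in RT1-Da (3.30, the next rat 1.43) and in both tested probes of RT1-Db1 (3.46, the next 1.62, and 3.34, the next 0.68), and low in RT1-N1 (-2.86, the next -0.06). Rat 2 of adequate copper with 30% sucrose was low in RT1-N1 (-4.44, the next -0.15) and RT1-N3 (-3.18, the next -1.26). Rat 5 of the control diet was high in RT1-N1 (1.68, the next 0.37), RT1-N2 (1.26, the next 0.24), RT1-CE10 (0.19, the next -1.06) and RT1-Bb (2.55, the next 1.85). Rat 5 of low copper with 10% sucrose was high in RT1-M6-1 (4.69, the next 3.99). Rat 5 of adequate copper with 30% sucrose was high in RT1-T24-2 (-2.36, the next -2.95) and RT1-M3-1 (-1.13, the next -1.85), and rat 1 of that diet was low in RT1-M10-1 (-6.29, the next -5.45).

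The copper difference at 30% sucrose minus that at 10% sucrose passed the interaction test of limma for RT1-T24-2 (-1.77) and RT1-M3-1 (-0.89), and among the listed genes for Irf2 (-1.18), Socs1 (-1.63), Nfya (-0.92) and Rfx5 (-0.98). The call of Rfx5 was lost in 13 of 24 fits that left out 1 rat (limma, adjusted p of 0.0100 to 0.0681), that of RT1-M3-1 in 12 of 24, and those of the other 4 in 0. None of the 6 passed with slide as a block.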

How the results depend on the processing

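The count of 0 called RT1 probes in the copper difference at 30% sucrose and in the sucrose difference at low copper was the same under every setting run. The other counts were small and moved easily. In the copper difference at 10% sucrose (6 probes) there were 3 with normexp, 2 with quantile normalization, 1 in the authors' table, 2 with a filter on all arrays, and 0 with slide as a block or on slide 3 alone. In the sucrose difference at adequate copper (3 probes) there were 0 with slide as a block and 6 with only both groups fitted. Low copper with 30% sucrose against control (1 probe) gave 0 with normexp, quantile normalization, the authors' table, the filter on all arrays and slide as a block. The interaction (2 probes) gave 5 with normexp, 1 with quantile normalization, 1 in the authors' table, 0 with slide as a block, and 1 without rat 2 of low copper with 10% sucrose and rat 5 of adequate copper with 30% sucrose, a setting chosen after seeing the data. The cause of these moves was not tested. Leaving out single rats gave 3 to 8, 2 to 5, 0 to 1 and 1 to 6 probes in these 4 comparisons, and 0 in the other 2. In the copper difference at 10% sucrose it was 3 without rat 3 of low copper with 10% sucrose. In the sucrose difference at adequate copper it was 5 without control rat 1. The interaction count was 5 and 4 without rat 1 and rat 2 of low copper with 30% sucrose, and 5 and 6 without rat 5 and rat 6 of low copper with 10% sucrose. It was 1 without rat 4 or 5 of low copper with 30% sucrose, rat 1 or 5 of adequate copper with 30% sucrose, rat 1, 2 or 4 of low copper with 10% sucrose, or control rat 1, 2, 3 or 4. RT1-M5 was lost in low copper with 30% sucrose against control without rat 1 or 2 of that diet or control rat 4 or 6. RT1-DOb was lost in 1 of 12 such fits for copper at 10% sucrose and in 3 of 12 for sucrose at adequate copper. Rfx5 was lost in 2 of 12 for copper at 10% sucrose.

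With slide as a block 3 called differences of RT1 probes changed sign: RT1-M10-1 in the copper difference at 10% sucrose (-0.095, the same on slide 3 alone), and RT1-T24-2 (-0.24) and RT1-DOb (-0.26) in the sucrose difference at adequate copper. Socs1 (-0.14) and Rfx5 (-0.19) did so in low copper with 30% sucrose against control, where neither was called. Of 966 single values of named genes under other settings, 809 kept direction and side of the threshold, 149 lost the call, 2 gained it and 6 changed sign. With the replicate number as a block the counts were 0, 6, 3, 0, 1 and 2 in the order of the 6 comparisons, as without it, and since the numbers did not pair rats it carries no further weight. The median residual SD of RT1 probes was 0.324 to 0.403 over all settings other than single rats. The 5 lowest rats of RT1-N1 were the 5 lowest in 4 RT1 probes with normexp, quantile normalization and the authors' table as well, and the 5 highest in 5 or 6. Quantile normalization moved the median interaction of all probes to 0.02, against -0.09. The class II differences of low copper with 30% sucrose from adequate copper with 30% sucrose were all below 0 with normexp, and 1 of 7 was above 0 with quantile normalization and in the authors' table. Against low copper with 10% sucrose 1 of 7 was above 0 in the authors' table and 0 with the other 2 scalings. Probes near background limit what can be said of RT1-M5 and RT1-M10-1, and Irf2 was about as weak in control rats.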
